A study of Drosophila melanogaster with 3 samples.

Results

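Genes of lipid, mevalonate and glycerol phosphate metabolism were examined for binding of the transcription factor clockwork orange (cwo) in Drosophila melanogaster embryos. The genes were Hacd1, Desat1, FASN1, ACC, Acsf2, bmm, Gpo1, Gpdh1 and Hmgs, 9 of the 13945 protein-coding genes annotated on the 6 chromosome arms. They were chosen by the roles of their enzymes and by signal rank in the region lists described here, so the strengths below are a description, and no test was made on them. Binding was measured by ChIP-seq, the precipitation of a tagged protein with the DNA it sits on followed by sequencing of that DNA. Chromatin came from whole embryos, male and female together, collected at 6 to 24 h from a transgenic fly line that stably expresses cwo with GFP fused to its C-terminus, and was sheared by sonication (size range 200 to 800). The antibody was against GFP, so only the tagged protein was followed. The labels do not say which promoter drives the fusion or whether the endogenous cwo gene was intact. The 3 samples were biological replicates of this 1 group, and no second condition was analysed. A whole embryo mixes many cell types, so a weak region in every cell and a strong one in few cells cannot be told apart. The lists hold no expression values, so neither the activity of these genes nor the tissue makeup was measured.

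The protein belongs to the bHLH-Orange repressors and takes part in the circadian clock, and it binds E-boxes, of which CACGTG is the canonical form. Fatty acid synthesis starts with the carboxylation of acetyl-CoA, goes on with chain building by fatty acid synthase, and is followed by elongation and desaturation. The fatty acids are stored as triglycerides on a glycerol phosphate backbone, mainly in the fat body, and are released again by lipases. The mevalonate pathway makes isoprenoids, and flies do not use it to make sterols, which they take from food.

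Sequences are shown for a selection of the summits, to set the letters beside the binding. A summit is the position of highest signal in a region. The selection is the strongest summit of Hacd1, Gpdh1, Acsf2, bmm and Desat1, the second strongest of FASN1, whose strongest lies in an annotated UTR, and the site at the weaker Desat1 promoter summit. None is shown for Gpo1, Hmgs and ACC. The windows run 100 bp either side of the summit (201 bp), or 12 bp either side of the E-box at the Desat1 promoter (30 bp), and are given 5′ to 3′ on the plus strand of the RefSeq Release 6 assembly, which is dm6. Capitals mark CACGTG, and at FASN1 they mark CACGCG and TTATCA, the reverse complement of TGATAA. The Gpdh1 window also holds TTATCA near its end, left in lower case. The Desat1 window beyond the gene end holds none of the searched motifs and has no capitals.
Hacd1, chr2L:12003303-12003503: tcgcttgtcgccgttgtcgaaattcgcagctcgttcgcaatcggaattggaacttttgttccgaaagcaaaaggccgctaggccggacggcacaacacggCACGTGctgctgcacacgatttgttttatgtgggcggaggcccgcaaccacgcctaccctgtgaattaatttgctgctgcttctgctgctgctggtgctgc
Gpdh1, chr2L:5945808-5946008: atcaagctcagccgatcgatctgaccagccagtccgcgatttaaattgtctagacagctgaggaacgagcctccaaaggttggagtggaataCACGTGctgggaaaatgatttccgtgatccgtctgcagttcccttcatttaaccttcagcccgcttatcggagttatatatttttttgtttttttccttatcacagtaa
Acsf2, chr2L:5342373-5342573: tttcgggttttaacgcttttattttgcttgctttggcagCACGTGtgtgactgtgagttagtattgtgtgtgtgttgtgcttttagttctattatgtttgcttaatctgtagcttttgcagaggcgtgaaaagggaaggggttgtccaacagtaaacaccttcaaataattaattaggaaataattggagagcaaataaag
bmm, chr3L:14781232-14781432: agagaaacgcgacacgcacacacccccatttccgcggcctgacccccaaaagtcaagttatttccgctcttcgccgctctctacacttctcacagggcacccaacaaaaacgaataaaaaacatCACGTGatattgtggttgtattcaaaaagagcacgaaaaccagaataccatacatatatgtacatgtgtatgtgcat
FASN1, chr2L:3057979-3058179: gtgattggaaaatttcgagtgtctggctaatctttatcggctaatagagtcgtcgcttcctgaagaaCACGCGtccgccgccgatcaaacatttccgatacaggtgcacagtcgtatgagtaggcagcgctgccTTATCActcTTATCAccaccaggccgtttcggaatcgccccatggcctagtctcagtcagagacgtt
Desat1 promoter, chr3R:12439766-12439795: attgttgacatgCACGTGatcgctaatcgg
Desat1 beyond the gene end, chr3R:12449080-12449280: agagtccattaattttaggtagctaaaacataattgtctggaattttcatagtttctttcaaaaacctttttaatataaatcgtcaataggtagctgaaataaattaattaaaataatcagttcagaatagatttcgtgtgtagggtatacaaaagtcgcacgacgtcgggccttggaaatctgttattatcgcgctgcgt
At Hacd1 the E-box centre lay 2.5 bp from the summit, and at Gpdh1 it lay 5.5 bp away. The distance was 11.5 bp at the Desat1 promoter, 26.5 bp at bmm and 58.5 bp at Acsf2. The bmm site extended into a palindrome of 10 bp and the Hacd1 site into 1 of 8 bp, while the other sites shown were palindromic over the 6 bp of the E-box itself. GC content of the windows was lowest at the end of Desat1 (32.8%) and highest at Hacd1 (55.7%).

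The deposited lists gave the extent and summit of each region and its signal, the authors' peak-caller value on a scale that the sources used here do not give. Each replicate list and the list from pooled reads held 30000 regions, background included. The optimal list held the 7366 regions that passed the irreproducible discovery rate procedure, and these were the 7366 strongest of the pooled list. Median signal was 33.0, 44.2 and 65.2 in replicates 1, 2 and 3, so signal was compared within a list, as a rank with 1 the strongest or as a multiple of that list's median. The lists do not give read depth, so no counting interval is given. No replicate shared a signal value with another at any optimal summit found in both.

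All 9 genes had at least 1 optimal summit in the gene body or within 5000 bp of it, where 54.3% of protein-coding genes had one. Their windows held 31 optimal summits in 156.9 kb, which is 1.98 per 10 kb, against 0.550 per 10 kb over the 6 arms. The arms were counted over their full length, including DNA far from any gene, which the windows leave out. The median was 4 summits per gene (range 1 to 5) among the 9 genes and 1 (range 0 to 34) over all protein-coding genes. Promoter summits were those no more than 1000 bp from a transcription start site (TSS) of the gene, and 8 of the 9 genes had one, against 25.3% of protein-coding genes. Hacd1 was the exception, with its nearest summit 1137 bp from its TSS. Of the 9 genes, 5 had 1 of the 100 strongest optimal summits in their window and all 9 had 1 of the 500 strongest, where 1.68% and 8.06% of protein-coding genes did. Since binding strength was part of how the genes were picked, nothing is read from these shares.

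**Figure D1:**
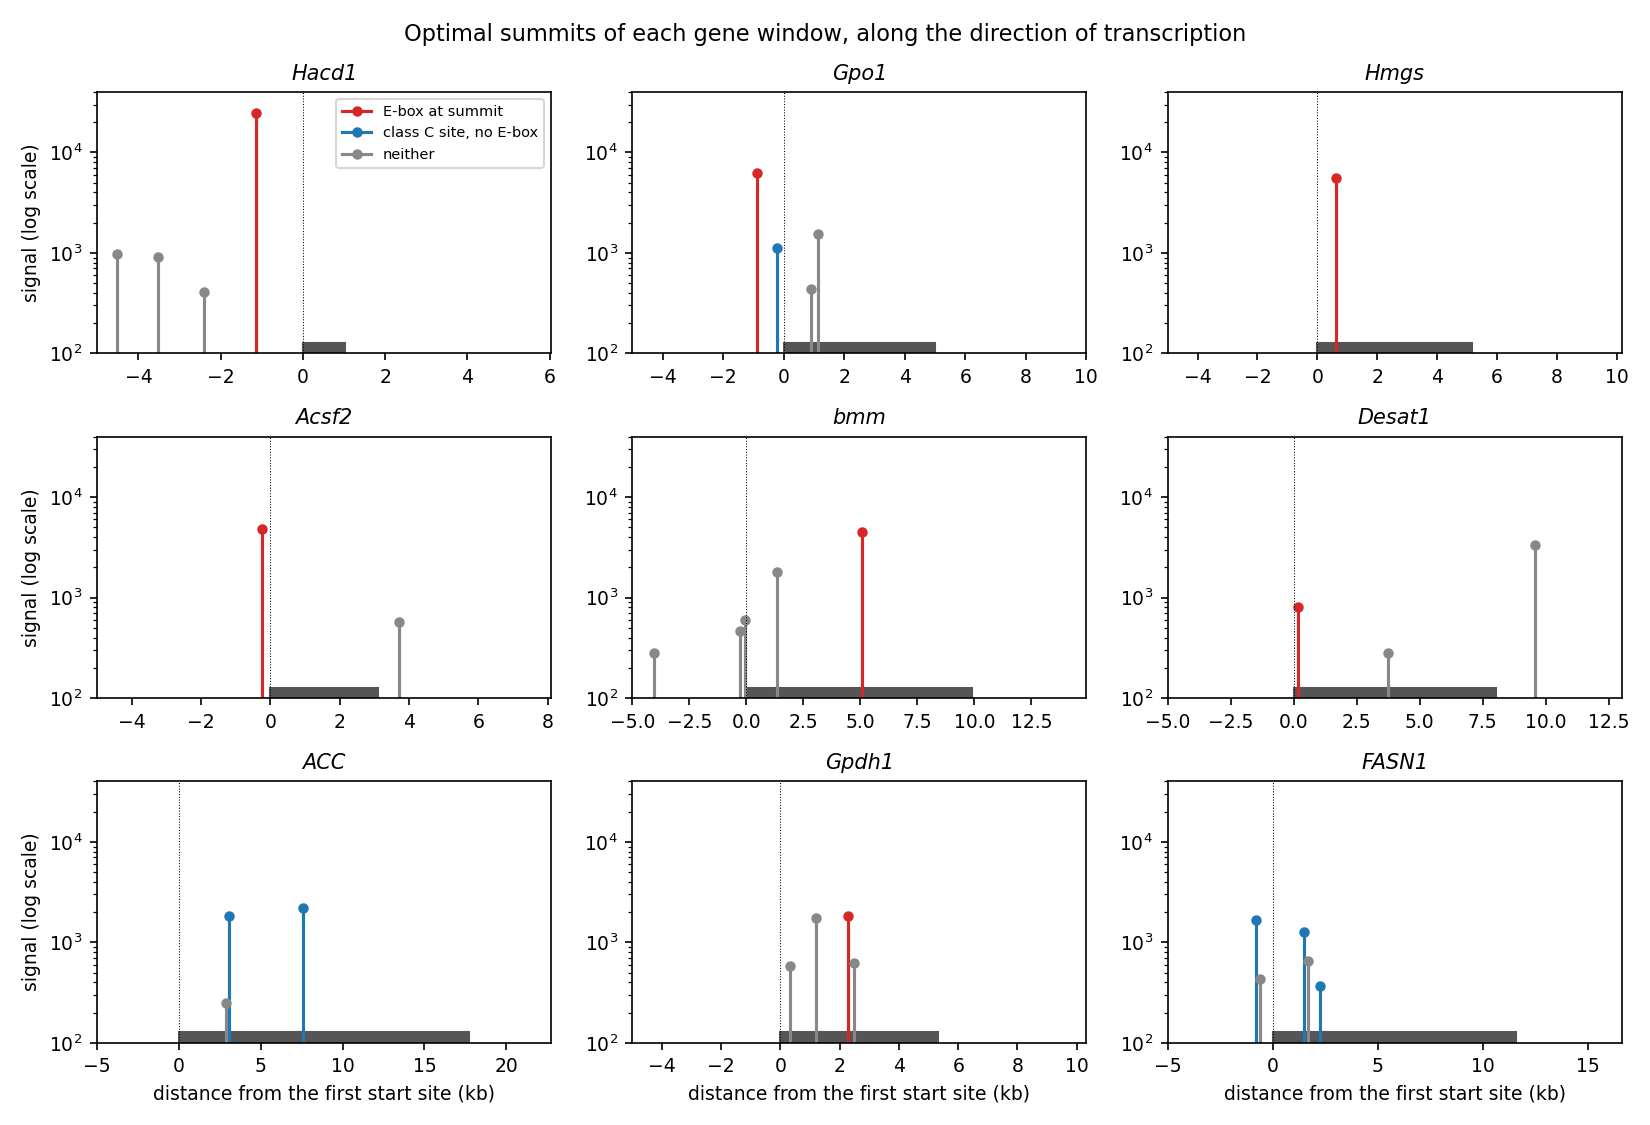
Optimal summits in each of the 9 windows, drawn along the direction of transcription. The horizontal axis is the distance in kb from the first start site of the gene (dotted line), the vertical axis is the signal of the optimal list on a log scale, and the grey bar is the gene body. Red stems have CACGTG within 100 bp of the summit, blue stems have CACGCG and no CACGTG, and grey stems have neither. The tallest stem of Hacd1 reaches 24645.3, and FASN1 and ACC have blue stems and no red one.

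By signal in the optimal list, the order of the strongest summits ran Hacd1, Gpo1, Hmgs, Acsf2, bmm, Desat1, ACC, Gpdh1 and FASN1. Their optimal ranks were 1, 25, 31, 40, 51, 107, 247, 367 and 430. Replicate ranks of neighbours in this order overlapped between Gpo1 and Hmgs, between Acsf2 and bmm, and between Gpdh1 and FASN1. The other neighbours had ranges that did not overlap over the 3 replicates. The replicates rest on the same regions that chose these genes, so this describes the lists and does not test the order.

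**Figure D2:**
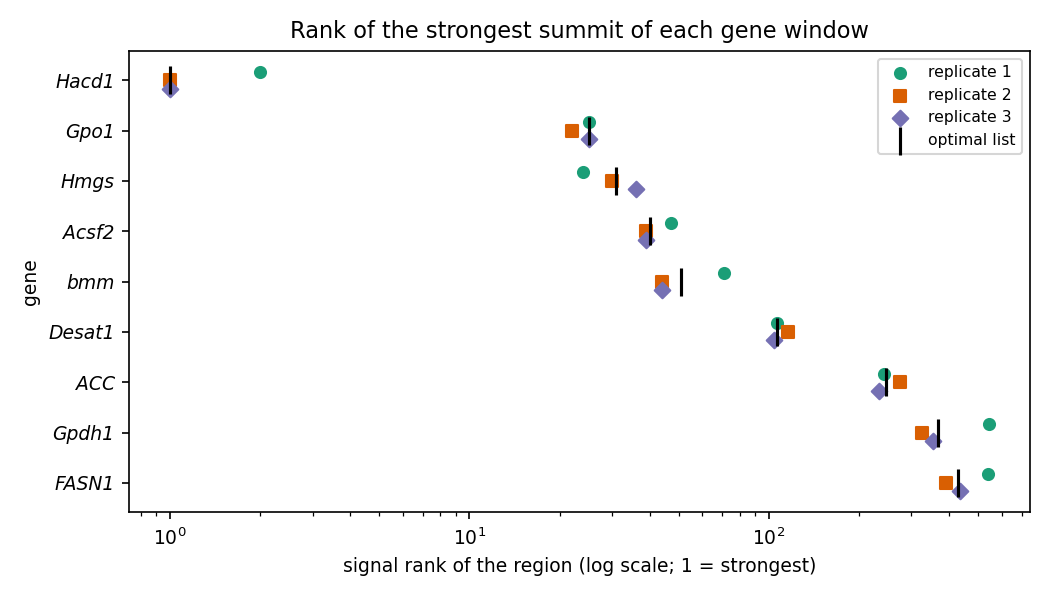
Rank of the strongest summit of each gene in the 3 replicate lists (symbols) and in the optimal list (vertical tick). The horizontal axis is the signal rank on a log scale, with 1 the strongest, and genes run down the page in order of optimal rank. Replicate 1 gave the weakest rank of the 3 at Hacd1, Acsf2, bmm, Gpdh1 and FASN1, and the widest spread is at Gpdh1, from 325 to 544.

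Among the enzymes of chain elongation and desaturation, Hacd1 carried the strongest region of the whole optimal list. Hacd1 (FBgn0032394, minus strand, 2L:12001234-12002266) encodes a 3-hydroxyacyl-CoA dehydratase, which removes water in the elongation cycle of very long fatty acids. Its summit at 2L:12003403, in intergenic DNA upstream of the gene, ranked 2, 1 and 1 in replicates 1, 2 and 3, a mean rank of 1.33 ± 0.577 (SD, n = 3). Its signal was 147, 183 and 192 times the median of the replicate's list, a mean of 174 ± 23.6 (SD, n = 3). It was at or next to the top in every replicate. The region spanned 1493 bp, 2L:12002871-12004363, against a median of 480 bp, and 35 optimal regions were wider. The next region of the list, whose summit lay at a promoter of CG18135, had a signal of 24168.0, so the ratio of the first to the second was 1.02, and the replicate ranks of that region averaged 1.67 ± 0.577 (SD, n = 3). The first and second place were therefore not separated beyond their spread.

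Upstream of the leading Hacd1 summit there were 3 weaker ones. The summits at 2L:12006788, 2L:12005783 and 2L:12004676 had optimal ranks 1047, 1167 and 3953. The first lay 4522 bp from the TSS of Hacd1 and 1365 bp from that of Rh5, an opsin gene, and the second lay 3517 bp from Hacd1 and 2370 bp from Rh5, so both were nearer to Rh5. The third was nearer to Hacd1, at 2410 bp, than to Rh5, at 3477 bp. The summit at 2L:12005783 ranked 721, 2192 and 1162 in the 3 replicates, and the one at 2L:12004676 ranked 3323, 4545 and 3705. The summit at 2L:12006788 also marked the edge of the window. It was the furthest inside, 4522 bp from the gene body, with a signal of 979.7. The nearest one outside, at 2L:12007447 and 5181 bp away, was stronger, with a signal of 1703.1 and rank 410.

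Desat1 (FBgn0086687, plus strand, 3R:12439600-12447616), the stearoyl-CoA desaturase that puts double bonds into fatty acids, had its strongest summit outside the gene. That summit, at 3R:12449180, lay 1564 bp beyond the end of Desat1 and 116 bp from the TSS of its neighbour CG18549, and 5139 bp from the nearest TSS of Desat1. It ranked 107, 116 and 104 in replicates 1, 2 and 3, a mean of 109 ± 6.24 (SD, n = 3), at 23.1, 21.8 and 25.04 times the list median. Of the strongest summits of the 9 genes, it was the only one that lay nearer to the TSS of another protein-coding gene than to a TSS of its own. The promoter of Desat1 had its own, weaker summit at 3R:12439792, in an intron 192 bp downstream of a TSS. It ranked 1464 in the optimal list and 1519, 1574 and 1375 in the replicates, and unlike the stronger one it held CACGTG. It lay also within 1000 bp of the TSS of CG17207, at 653 bp. The third summit, at 3R:12443344, was among the weakest, with optimal rank 6352. Replicates 2 and 3 had a summit within 100 bp of it, with ranks 5446 and 5607. Replicate 1 had none, and the region of that list covering it ranked 7512.

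Both enzymes of fatty acid synthesis had summits with CACGCG and without CACGTG. FASN1 (FBgn0283427, plus strand, 2L:3056598-3068177) encodes fatty acid synthase, which builds palmitate from malonyl-CoA. Its strongest summit, at 2L:3055807, was 791 bp upstream of the FASN1 TSS and inside the annotated 3′ UTR of the neighbouring FASN2 gene. It ranked 542, 391 and 436 in replicates 1, 2 and 3, a mean of 456 ± 77.5 (SD, n = 3), at 9.96, 12.04 and 12.6 times the list median. The next summit, at 2L:3058079 in an intron, had optimal rank 711 and ranked 1717, 570 and 615 in the replicates. Replicate 1 stood apart from the other replicates at this summit. A further intronic summit at 2L:3058863 had rank 4498 in the optimal list. Replicate 1 had no summit within 100 bp of it, but a region of that list at rank 3641 covered it. These 3 FASN1 summits held CACGCG, and the remaining 2, at 2L:3058278 and 2L:3056012, ranked 2037 and 3569.

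ACC (FBgn0033246, minus strand, 2R:7974115-7991862) encodes acetyl-CoA carboxylase, which makes the malonyl-CoA that FASN1 uses. Its strongest summit, at 2R:7984298, lay in an intron, 235 bp upstream of an internal TSS. It ranked 242, 274 and 233 in replicates 1, 2 and 3, a mean of 249.7 ± 21.6 (SD, n = 3), at 15.4, 14.4 and 16.9 times the list median. This spread was small next to the difference in mean rank from its neighbours in the order, 140.7 for Desat1 and 158.0 for Gpdh1. The SD of Gpdh1 itself was larger, at 119. The second summit, at 2R:7988808, had optimal rank 365 and replicate ranks of 490, 387 and 325. It was 276 bp from the TSS of Nup44A, a nucleoporin gene, and 906 bp from a TSS of ACC, so it counted at both promoters. The weakest of all 31 summits was also at ACC, at 2R:7989007, with optimal rank 7319 and signal 249.4. The strongest pooled region that missed the optimal list in any of the 9 windows was at bmm (3L:14779576), with pooled rank 7607 and signal 242.7.

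**Figure D3:**
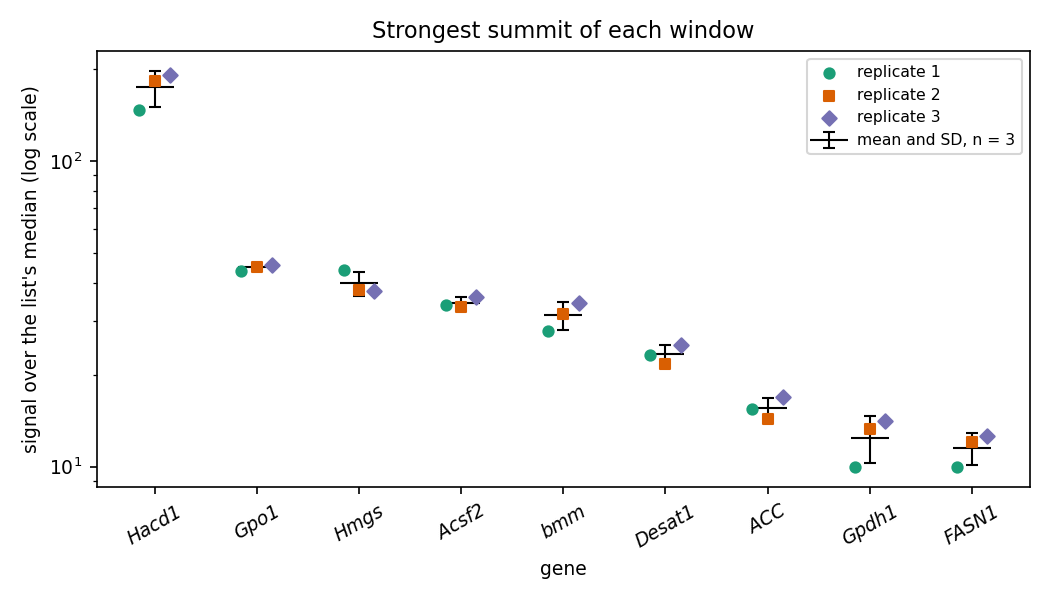
Signal of the strongest summit of each gene as a multiple of the median signal of the same replicate list, on a log scale. Symbols are the 3 replicates, and the horizontal line and bar are the mean and SD (n = 3). Hacd1 averages 174 times the median, the next gene, Gpo1, averages 44.9, and FASN1 averages 11.5.

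Acsf2 (FBgn0031703, minus strand, 2L:5339132-5342234) encodes an acyl-CoA synthetase family member, an enzyme class that activates fatty acids by joining them to coenzyme A. Its promoter summit at 2L:5342473, 239 bp upstream of the TSS, ranked 47, 39 and 39 in replicates 1, 2 and 3, a mean of 41.7 ± 4.62 (SD, n = 3). The signal was 33.8, 33.3 and 36.0 times the list median, so the 3 replicates were close. The only other optimal summit of the window, at 2L:5338522, had rank 2385. It lay 610 bp beyond the gene's end and 449 bp from the TSS of fusl.

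Brummer, bmm (FBgn0036449, minus strand, 3L:14776496-14786412), encodes the triglyceride lipase of fat body lipid droplets and is the fly counterpart of mammalian adipose triglyceride lipase. The strongest summit, at 3L:14781332, was in an intron 5080 bp downstream of the only annotated TSS. It ranked 71, 44 and 44 in replicates 1, 2 and 3, a mean of 53.0 ± 15.6 (SD, n = 3), at 27.9, 31.5 and 34.4 times the list median. Replicates 2 and 3 placed it alike and replicate 1 placed it lower. A second intronic summit, at 3L:14785085, had optimal rank 376 and replicate ranks of 374, 390 and 390. The strongest replicate 1 region covering that position ranked only 2667. The promoter summits were weaker. The one at 3L:14786452, 40 bp upstream of the TSS, had rank 2279, and the one at 3L:14786675 had rank 3212 and lay 116 bp from the TSS of Tdrd3. The last summit, at 3L:14790453, had rank 6403 and was 98 bp from the TSS of Helz.

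Glycerol phosphate metabolism was represented by both enzymes of the shuttle that passes reducing equivalents from the cytosol to mitochondria. Gpo1 (FBgn0022160, minus strand, 2R:15857752-15862755) encodes the mitochondrial glycerol-3-phosphate oxidase. Its summit at 2R:15863645, 890 bp upstream of a TSS, ranked 25, 22 and 25 in replicates 1, 2 and 3, a mean of 24.0 ± 1.73 (SD, n = 3), at 43.8, 45.1 and 45.8 times the list median. Among the strongest summits of the 9 genes ranked below Hacd1, this one had the smallest SD of rank. A summit at 2R:15861629, 89 bp downstream of another TSS, had optimal rank 479 and replicate ranks of 552, 474 and 477. A summit at 2R:15862965, with rank 842, was closest to the 5′ end of the gene, at 210 bp, and held CACGCG. The fourth, at 2R:15861842, had rank 3579 and replicate ranks of 5151, 1502 and 2799, so the replicates disagreed on it.

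Gpdh1 (FBgn0001128, plus strand, 2L:5943643-5948968), the cytosolic glycerol-3-phosphate dehydrogenase, had its summits inside the gene. The strongest, at 2L:5945908 in an intron, was 1943 bp downstream of the nearest TSS of Gpdh1. It ranked 544, 325 and 354 in replicates 1, 2 and 3, a mean of 408 ± 119 (SD, n = 3), at 9.95, 13.2 and 14.1 times the list median. A summit at 2L:5944855, also intronic, followed closely with optimal rank 398, and it ranked 433, 452 and 347 in the replicates. In replicates 1 and 3 this second summit outranked the first, so their order was not separated. The summit nearest to a TSS, at 2L:5943956 and 9 bp from it, had rank 2327. The summit at 2L:5946115, in a coding exon, had rank 2127.

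Hmgs (FBgn0010611, plus strand, 2R:16336090-16341242), the HMG-CoA synthase of the mevalonate pathway, was the only one of the 9 genes with a single optimal summit. This summit, at 2R:16336716, lay in the annotated 5′ UTR, 44 bp upstream of an internal TSS. It ranked 24, 30 and 36 in replicates 1, 2 and 3, a mean of 30 ± 6 (SD, n = 3), at 44.0, 37.7 and 37.6 times the list median. It was 79 bp from the TSS of Vha44, a subunit gene of the vacuolar proton pump, and was a promoter summit of both genes. Which of the 2 genes the binding bears on cannot be told apart from these lists.

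Genes with promoter summits of like strength were found by closeness of optimal rank for the 3 genes with the strongest summits. For Gpo1 the next stronger was cwo itself, at rank 24, with replicate ranks of 23.3 ± 4.51 (SD, n = 3). The next weaker was srp, at rank 27, which encodes the GATA factor serpent, with replicate ranks of 27.3 ± 1.53 (SD, n = 3). For Hmgs the next weaker was Orct2, a transporter gene, at rank 32, with replicate ranks of 33.3 ± 7.51 (SD, n = 3). Gpo1 and cwo did not differ beyond their spread, nor did Hmgs and Orct2. The fly line carries added cwo sequence, and its part in the signal at the cwo gene was not tested.

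The replicates shared most of the 31 summits. A summit counted as held when it lay inside 1 of a replicate's 7366 strongest regions. Of the 31 summits, 28 were held by all 3 replicates, and 71.9% of all optimal summits were. The other 3, at ACC (2R:7989007), bmm (3L:14790453) and Desat1 (3R:12443344), were each held by 2. Replicates 1, 2 and 3 held 29, 31 and 30 of the 31. The optimal list was made from these replicates, so this is no independent check of them. Of the 31 summits, 6 were secondary, that is, weaker than another optimal summit within 400 bp.

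**Figure D4:**
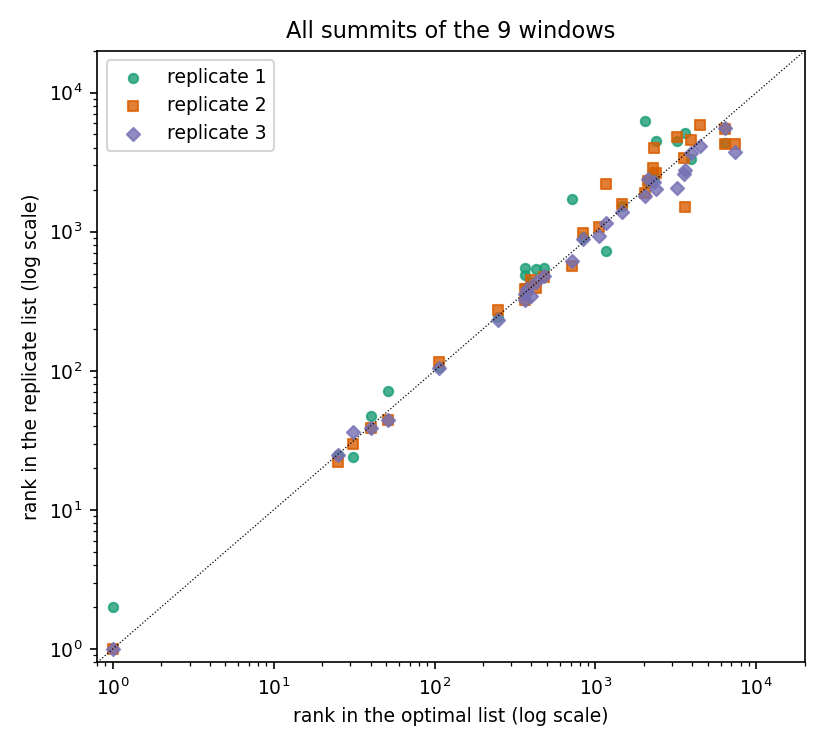
Replicate rank against optimal rank for the 31 summits, both on log scales, with 1 the strongest. Symbols are the 3 replicates, and the dotted line marks equal rank. Of 93 pairs of summit and replicate, 86 are drawn, and in the other 7 the replicate list had no summit within 100 bp. Points lie close to the line for the strongest summits and scatter more widely for the weaker ones.

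CACGTG stood within 100 bp of 7 of the 31 summits, and of 13.5% of all optimal summits. Of the strongest summits of the 9 genes, 6 had it, at Hacd1, Gpo1, Hmgs, Acsf2, bmm and Gpdh1, and of the other 22 summits only the Desat1 promoter did. The 5 strongest summits that were among the 100 strongest of the list all held CACGTG, where 53.0% of those 100 did. The motif stood at 30.6% of the 500 strongest optimal summits, and these genes were picked with strong summits in view. In the 18722 pooled regions more than 1000 bp from every optimal summit, 5.62% held it.

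The windows held 19 CACGTG sites in all, and 7 of them were within 100 bp of an optimal summit, where 6.25% of the sites on the 6 arms were. The genes were picked with strong summits in view and their windows were denser in summits than the arms, so nothing is read from this share. The other 12 sites were all inside annotated genes, 5 of them in coding exons. At Hacd1 a pair of sites in coding exons of the neighbour Nfs1 lay 3161.5 and 3391.5 bp from the nearest optimal summit. The single FASN1 site, in a coding exon, was 3450.5 bp away, and the 3 sites in the ACC window lay 2173.5 bp or more away. A site in the 5′ UTR of Desat1 was 36.5 bp from a summit of the pooled list, which ranked 10732 there and had not entered the optimal list. The genes also differed in how near the CACGTG match was to the summit, which was 7.5 bp at Gpo1 and 34.5 bp at Hmgs.

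Another 4 motifs were searched on both strands within 100 bp of the summit, with overlapping matches counted. CACGCG, the class C site that bHLH-Orange proteins bind, stood at 6 of the 31 summits, 3 of them at FASN1, 2 at ACC and 1 at Gpo1, and at 8.00% of all optimal summits. None of these 6 summits held CACGTG within the same distance. In addition TGATAA, the core bound by GATA factors, stood at 11 of the 31 summits and 20.8% of all optimal ones. TATCGATA, the DNA replication-related element, stood at 1, the bmm summit 40 bp from the TSS, and at 1.74% of all optimal ones. TCACNCCAC, a form of the sterol regulatory element, stood at none of the 31 and at 0.367% of all. At 14 summits none of the 5 motifs was found, the Desat1 summit at rank 107 among them. These are matches of letters and do not show which factor was bound.

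By annotated feature, 15 of the 31 summits were in introns, 11 in intergenic DNA, 2 in 5′ UTRs, 2 in 3′ UTRs and 1 in a coding exon. Promoter summits numbered 17, and 10 of the 31 lay within 1000 bp of the TSS of another protein-coding gene. In 7 cases the summit was within 1000 bp of a TSS of its own gene and of another gene.

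The pathways around these enzymes were counted from 8 gene lists with 96 matched genes. Of these 96, 40 had an optimal promoter summit, and without the 9 genes it was 32 of 87 (36.8%), against the 25.3% of protein-coding genes given above. The lists were drawn up with results of these data known, so no test was made of them. Of the 32, 4 had CACGTG at that summit, namely Agpat3, Gk2, Acsl and hll, where 13.5% of all optimal summits had it. A replicate rank below is that of the strongest replicate region covering the summit.

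Fatty acid synthesis had 6 of 8 genes with a promoter summit, 4 of 6 without FASN1 and ACC. AcCoAS, the acetyl-CoA synthetase, ranked 232 in the optimal list and 229.7 ± 42.5 in the replicates (SD, n = 3), close to ACC. ATPCL, ATP citrate lyase, had optimal rank 946, and Men, a malic enzyme, had 1998. FASN2 and FASN3 had no promoter summit. In the gene body or within 5000 bp of it, FASN2 had an optimal summit at rank 72, stronger than that of FASN1, and FASN3 had none. In elongation and desaturation 6 of 27 genes had one, among them CG31523 at rank 308, spidey, a ketoacyl-CoA reductase, at rank 927 and Baldspot, an elongase, at rank 1277. Hacd1 was not counted among them, since its nearest summit, the strongest of the list, lay 1137 bp from its TSS. Desat2, the neighbour of Desat1, had none within 1000 bp, and the strongest summit of its window was the Desat1 promoter summit at rank 1464.

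Glycerolipid synthesis had 7 of 9 genes with a promoter summit, the largest share of the 8 lists, and none of the 9 enzymes is in it. The strongest was at Lpin, the phosphatidate phosphatase lipin, with rank 184 and replicate ranks of 195.7 ± 8.39 (SD, n = 3). Agpat4 and Agpat2, acyltransferases of the preceding step, followed at ranks 1127 and 1271. In the storage and lipolysis list, 4 of 7 genes had one, among them Lip4, a lipase, at rank 736, Seipin, of lipid droplet assembly, at rank 948, and Lsd-2, a perilipin, at rank 7331. Glycerol phosphate enzymes had 4 of 9, with the glycerol kinases Gk1 and Gk2 at ranks 602 and 1459. Gpo2, Gpo3, Gpdh2 and Gpdh3, relatives of Gpo1 and Gpdh1, had no promoter summit. In the gene body or within 5000 bp of it, Gpo2 had an optimal summit at rank 433, and the other relatives had none.

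Acyl-CoA activation and beta oxidation had 10 of 23 genes with a promoter summit. After Acsf2 at rank 40, the strongest were Mcad, the medium-chain acyl-CoA dehydrogenase, at rank 456, bgm, a very-long-chain acyl-CoA synthetase, at rank 801 and Acsl, a long-chain acyl-CoA synthetase, at rank 1235. The mevalonate and isoprenoid list had 2 of 9, Hmgs and qm, which encodes a geranylgeranyl diphosphate synthase, at rank 4751. Mvk, Pmvk, Mvd, Idi and Fpps, enzymes of the later steps, had no promoter summit, though the Pmvk window held an optimal summit at rank 510. In the processing of the lipid regulator SREBP, 1 of 4 genes had a promoter summit, SREBP itself at rank 850, and SCAP, S1P and S2P had none. The strongest optimal summits in the windows of S2P and SCAP had ranks 2092 and 4490.

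**Figure D5:**
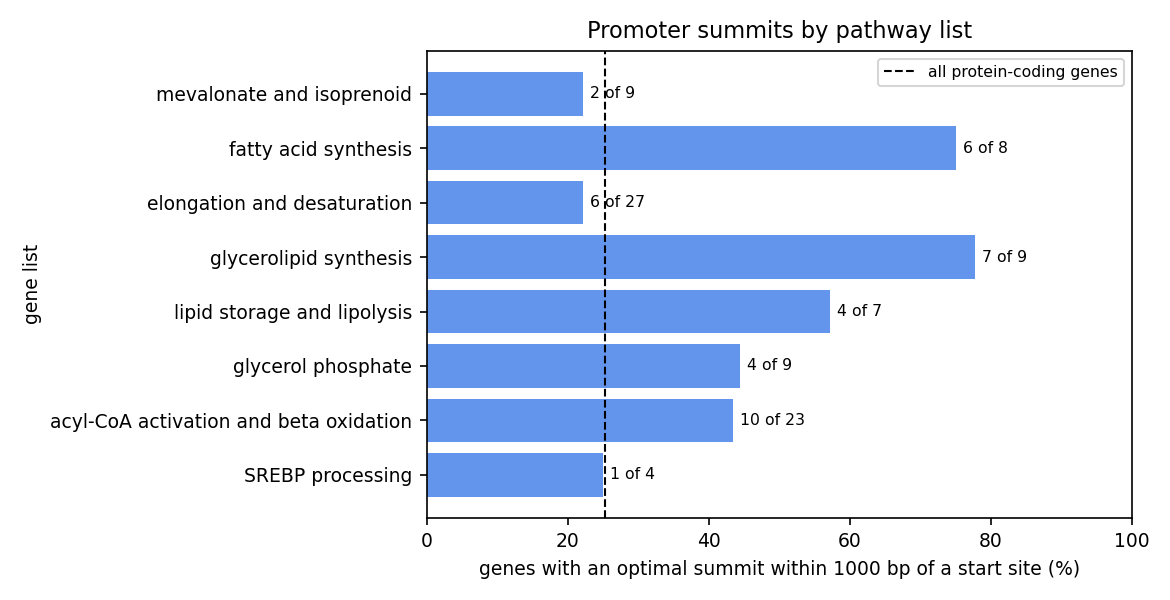
Share of genes in each of 8 pathway lists with an optimal summit within 1000 bp of a TSS, in percent, with counts beside the bars. The dashed line is the share of all protein-coding genes, 25.3%. Hacd1, whose nearest summit lies beyond that distance, is not counted as having one in the elongation list. Glycerolipid synthesis (7 of 9) and fatty acid synthesis (6 of 8) have the longest bars, and the mevalonate list (2 of 9) and the elongation list (6 of 27) lie under the line, with SREBP processing (1 of 4) just short of it.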

How the data were processed

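The deposited lists held a signal value per region, which the authors' peak caller gave, with no stated normalization. Each replicate's dm6 alignment was called against a control alignment, and the pooled alignments were called as well, per the text deposited beside the lists, which names no control for the pooled call. Every optimal signal and rank comes from that pooled call. Not given in the sources used here are the peak caller, the aligner and the threshold of the discovery rate procedure. Lists on dm3 were not used, and no coordinate was moved between builds.

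Summits were placed at the region start plus the deposited offset, in 1-based coordinates. Genes came from Ensembl release 115 of the same assembly, with 17683 genes on the 6 arms. Work was done in Python 3.11.15 with pandas 2.3.3 and numpy 2.4.6, and the functions were tested on simulated data. Of 101 listed symbols, 1 matched no gene. The genes named beside the 9 were the 3 with the strongest promoter summit in each list, genes sharing a leading summit or with the nearest TSS to it, and the next stronger and weaker promoter by rank for the 3 leading genes. Others were named after their values were seen. The 9 genes and the lists were chosen with earlier results of these data known. With 1 group no test was made, and replicate means carry the SD. Alternatives changed the distances, the list length, the motif window and the replicates used.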

Additional observations from a re-analysis of the deposited data

How the results depend on the processing

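All 38 alternative counts stayed within 1.5 times the reported count. The 31 summits became 27 with windows of 2000 bp and 37 with 10000 bp, 26 in the strongest 3683 regions and 25 without secondary summits. Leaving out a replicate means keeping the optimal regions that both others held, which gave 28 to 30 summits and 35 to 38 of the 40 listed pathway genes. Of the 9 genes, those with a promoter summit numbered 7 at 500 bp and 9 at 2000 bp, against 8. Of the listed pathway genes it was 33 at 500 bp, 47 at 2000 bp and 29 in the strongest 3683 regions, against 40. Summits with CACGTG numbered 6 within 50 bp, against 7. Asking for a replicate summit within 100 bp left 24 of the 28 summits held by all 3. The optimal list rests on the pooled reads of all replicates, so none of these is a new call. Read depth is unknown, and what it limits could not be assessed. No paired analysis was possible because there is 1 group.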
